A study of Homo sapiens and Canis lupus familiaris with 27 samples.

Results

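The replication-dependent histone genes were followed through 2 human prostate carcinoma cell lines exposed to the indolylmaleimide PDA-66. These genes lie in clusters on chromosomes 6, 1 and 12 and were taken as all rows of the gene tables whose symbol starts with HIST1H, HIST2H, HIST3H or HIST4H. This rule found 73 of the 23708 genes listed. By symbol, 6 belong to the class of the linker histone H1, 18 to H2A, 20 to H2B, 14 to H3 and 15 to H4. HIST1H2APS1 in the H2A class and HIST2H2BA and HIST2H2BC in the H2B class are annotated as pseudogenes. Both PC-3 and LNCaP are established lines. Cells had been kept in PDA-66 at 15 µM for 12 h or 24 h, or with 0.15% DMSO, the solvent, as the control. The controls are labelled with 24 h in both lines, so that time and treatment cannot be told apart in the 12 h comparison, and both PDA-66 groups of a line share the same control libraries. PC-3 had 2 DMSO libraries and 3 libraries per PDA-66 group, LNCaP had 3 libraries in each of the 3 groups, and 17 libraries were analysed in all. No other treatment is named, and each line stands for itself alone.

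Histones H2A, H2B, H3 and H4 form the protein core of the nucleosome, and H1 binds the DNA where it enters and leaves that core. The cluster genes supply them in bulk while DNA is copied, and their messages are usually cut behind a stem-loop and carry no poly(A) tail. The stem-loop is bound by SLBP, which serves in processing, export, translation and decay of these messages. Some cluster genes can also give a longer message that reads past the stem-loop and ends in a poly(A) tail, as is known from differentiating or non-dividing cells. The libraries had been made from poly(A)-enriched RNA, so the counts describe what passed this selection and not the whole histone message pool.

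The stem-loop is shown because it is the end at which most of these messages are normally cut. A stem of 6 base pairs that starts with GG and a loop of 4 bases was searched for within 100 bases behind the stop codon, in the GRCh37 sequence, which is the build of the deposited counts (hg19). It was found in 62 of the 64 members with an annotated stop codon, 22 to 67 bases behind it, compared with 118 of 19705 protein-coding genes (0.599%). These protein-coding genes include the members themselves. No such stem-loop was found for HIST1H2AG and HIST1H2AK. In the following sequences, which lie behind the stop codon, capitals mark the paired stem and lower case marks the loop.
HIST2H2BE (chr1:149857738-149857753, minus strand): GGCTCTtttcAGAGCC
HIST1H2BK (chr6:27114145-27114160, minus strand): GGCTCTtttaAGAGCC
HIST1H3E (chr6:26225824-26225839, plus strand): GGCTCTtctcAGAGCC
HIST1H4H (chr6:26285359-26285374, minus strand): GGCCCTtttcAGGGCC
The stem differed by class. All 14 stem-loops found in H4 genes had the stem GGCCCT with AGGGCC, and those of the other 4 classes had GGCTCT with AGAGCC. The loop varied within each class, most often as tttc.

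Promoters are shown for the H2B and the H2A gene with the smallest adjusted p in PC-3 after 12 h, of which one holds all motifs searched and the other does not. Windows of 300 bases around the start site, from RefSeq on GRCh38.p14, were at hand for 60 members. The octamer ATTTGCAT, the binding sequence of OCT factors, was present on either strand in 11 of 16 H2A and 9 of 13 H2B promoters, in 1 of 12 H3 promoters and in 0 of 6 H1 and 0 of 13 H4 promoters. Over all 27305 promoters of this length it was found in 2.19%. CCAAT was present in 50 of the 60 promoters (39.7% of all promoters) and TATAAA in 41 of 60 (14.0% of all promoters). The 150 bases before the start site are printed below, with these motifs on either strand in capitals.
HIST2H2BE (chr1:149886683-149886832, minus strand): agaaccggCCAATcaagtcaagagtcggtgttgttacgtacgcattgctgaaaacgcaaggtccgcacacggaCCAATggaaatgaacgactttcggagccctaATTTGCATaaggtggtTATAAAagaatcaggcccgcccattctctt
HIST3H2A (chr1:228457874-228458023, minus strand): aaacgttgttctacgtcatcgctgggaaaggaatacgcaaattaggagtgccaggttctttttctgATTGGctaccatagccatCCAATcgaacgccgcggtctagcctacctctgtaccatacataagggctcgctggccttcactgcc
The HIST2H2BE stretch held all 3 motifs, and the HIST3H2A stretch held CCAAT alone.

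Total counts per library were between 14650839 and 18091755 in PC-3 and between 11923105 and 14741883 in LNCaP. The common biological coefficient of variation, which is the spread between replicates beyond counting error, was 0.0971 in PC-3 and 0.240 in LNCaP. PC-3 markers, among them VIM and CD44, summed to between 2357 and 3178 CPM, which are counts scaled to an equal library total, in PC-3 and to between 9.68 and 15.5 CPM in LNCaP. One library stood apart. In LNCaP PDA-66 12 h replicate 2, 37 RNAs that carry no poly(A) tail summed to 80.2 CPM, compared with 8.23 to 13.5 CPM in the other LNCaP libraries and 8.62 to 15.6 CPM in PC-3. Its counts also differed more from those of its replicates (chi-square per degree of freedom of 203 and 159) than these differed from each other (7.06). The LNCaP counts of calls are therefore given with and without this library, as are some member values, and its part in them beyond that was not tested. By the same chi-square measure, the 2 PC-3 DMSO libraries differed by 33.1 and the LNCaP DMSO libraries by 15.5 to 32.5. PC-3 PDA-66 libraries differed by 1.88 to 4.38 after 12 h and by 3.00 to 15.0 after 24 h. The PC-3 tests share 1 estimate of the spread over these unlike groups.

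**Figure D1:**
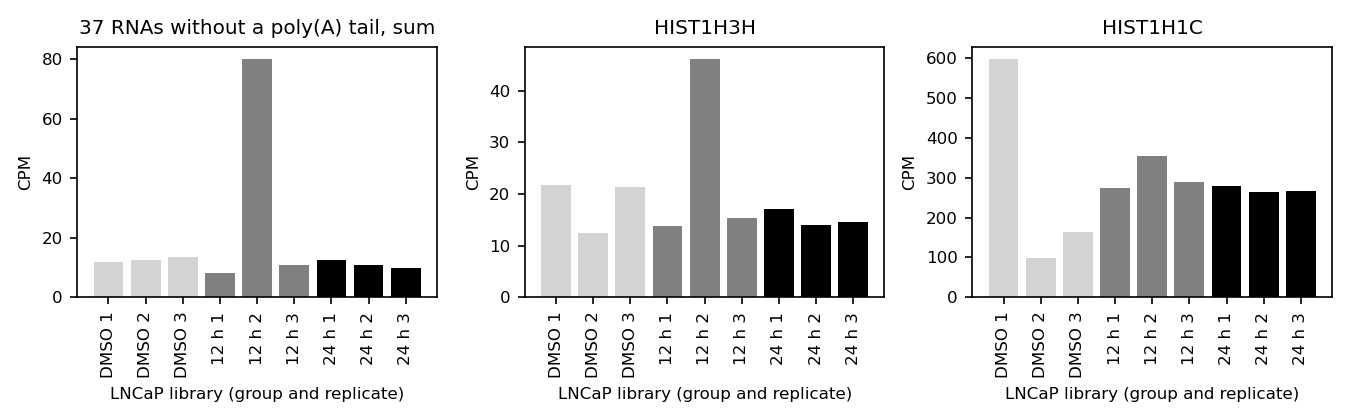
Bars give CPM in each of the 9 LNCaP libraries for the sum of 37 RNAs without a poly(A) tail, for HIST1H3H and for HIST1H1C. PDA-66 12 h replicate 2 reached 80.2 CPM in the first panel and 46.2 CPM for HIST1H3H, and DMSO replicate 1 reached 599 CPM for HIST1H1C.

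Histone cluster genes took a small share of the counts, and the share was lower in every PDA-66 library of PC-3 than in either control. It was 0.0361% and 0.0423% in the PC-3 DMSO libraries, between 0.0163% and 0.0179% after 12 h and between 0.0151% and 0.0176% after 24 h. In LNCaP, it lay between 0.0762% and 0.154% in the DMSO libraries, between 0.0755% and 0.0914% after 12 h and between 0.0969% and 0.106% after 24 h, so that the groups overlapped. These are bulk samples, in which fewer cells that carry histone messages and fewer messages per cell cannot be told apart.

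Few members made up most of these counts. H2B genes took 60.0% of the member counts in PC-3 and 56.6% in LNCaP, and H1 genes 13.2% and 29.9%. Such shares of reads also grow with the length of a message and are not levels per molecule. HIST1H2BK (25.7%), HIST2H2BE (14.8%), HIST1H1C (12.5%) and HIST1H2AC (10.0%) led in PC-3. In LNCaP, HIST2H2BE (31.7%), HIST1H1C (28.9%) and HIST1H2BK (15.3%) led. H3 and H4 genes took 3.43% and 5.65% in PC-3 and 3.13% and 2.65% in LNCaP. A mean of at least 1 CPM was reached by 18 members in PC-3 and by 32 in LNCaP, and 16 members in each line had a count of 0 in all its libraries. Enough counts for a test were found for 26 members in PC-3 and 37 in LNCaP, with 25 tested in both, HIST1H2BH in PC-3 only and 12 members in LNCaP only.

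Copies of nearly identical sequence limited what could be counted. For HIST2H2AA3, HIST2H2AA4, HIST2H3A, HIST2H3C, HIST2H4A and HIST2H4B, 0% of the 75-base windows of their annotated exons, the length of a read, occurred once in the genome, and their count was 0 in all 17 libraries. For 51 members, over 90% of these windows occurred once. Among the members described in the following, HIST1H2AI (38.7%), HIST2H2BF (39.2%) and HIST1H2BK (61.0%) shared more of their sequence, and their values are uncertain to that extent. HIST1H2BC, HIST1H2BF and HIST1H2BG were not matched to the annotation by symbol and have no such value. HIST2H2BF also overlaps FCGR1A on the opposite strand (9.84% of its exon bases), and HIST1H4H overlaps another annotated gene there (13.3%). Whether the counting used the strand is not stated. For HIST1H3D, 96.6% of the exon bases overlap another annotated gene on the same strand, so its reads may not be its own alone.

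In PC-3, members of all 5 classes fell with PDA-66 at 1 or both times, and no member rose, though the 1 call among H4 genes, HIST1H4H after 24 h, was lost in 7 of 8 fits with 1 library left out. After 12 h, 9 of the 26 members tested fell and 0 rose at an adjusted p under 0.001, compared with 14.6% of all 13777 genes that fell and 13.0% that rose. They were 1 of 2 H1 genes, 3 of 5 H2A genes, 4 of 12 H2B genes, 1 of 3 H3 genes and 0 of 4 H4 genes. The log2 fold change was below 0 for 21 of 26 members, with a median of -0.81 compared with -0.01 over all genes. After 24 h, 11 of 26 fell and 0 rose, compared with 10.5% and 8.88% of all genes. Here 1 H1, 3 H2A, 4 H2B, 2 H3 and 1 H4 gene fell, 25 of 26 log2 fold changes were below 0 and their median was -1.04 (-0.01 over all genes).

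**Figure D2:**
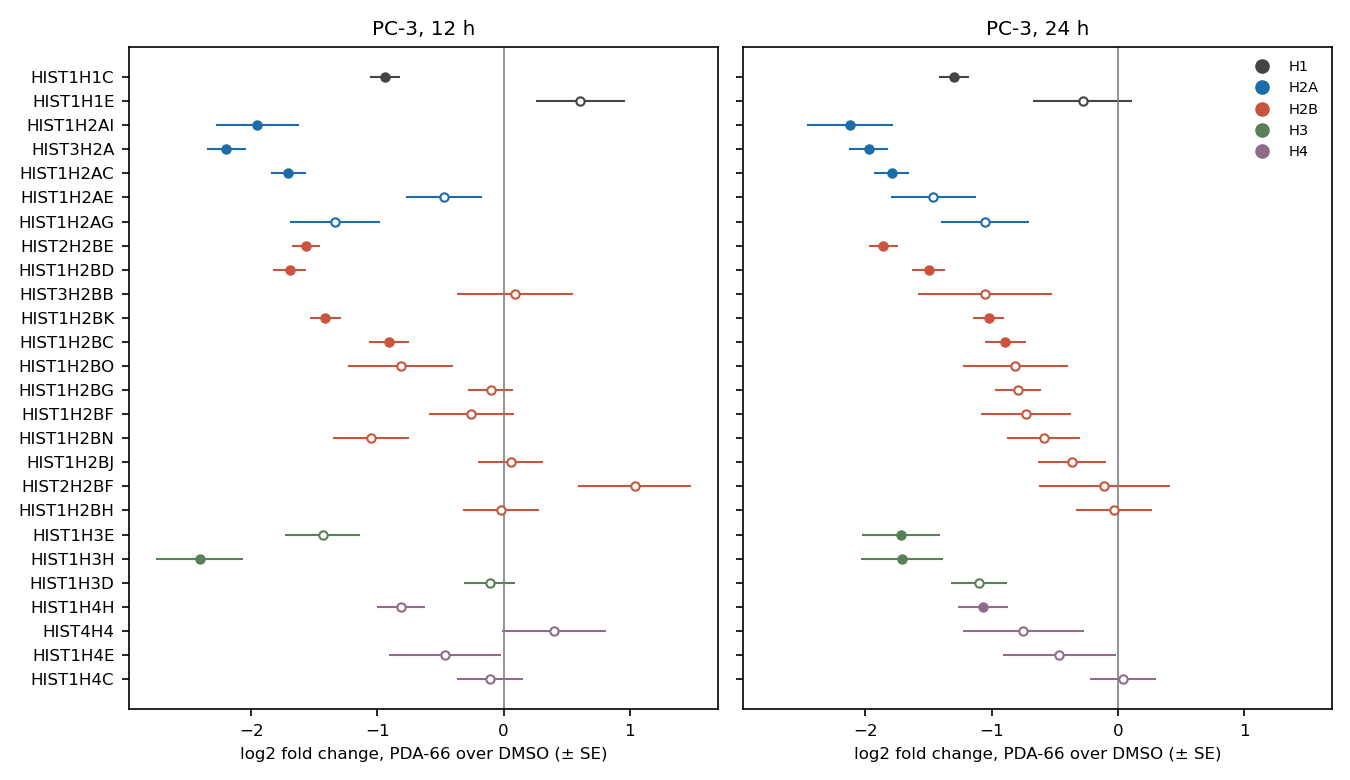
Points give the log2 fold change of PDA-66 over DMSO (horizontal axis, bars are SE) for the 26 members tested in PC-3 after 12 h and 24 h, coloured by class, with filled points for an adjusted p under 0.001. All filled points lie below 0, and HIST1H4C is the one member above 0 after 24 h.

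Among the H2B genes, HIST2H2BE had the smallest adjusted p after 24 h. It was at 66.2 and 74.5 CPM in the DMSO libraries, at 26.6, 23.1 and 21.6 CPM after 12 h and at 19.9, 20.0 and 18.3 CPM after 24 h. All PDA-66 libraries lay far below both controls. The log2 fold change was -1.56 ± 0.11 (SE) after 12 h (2.96-fold lower, adjusted p = 1.7e-07) and -1.86 ± 0.11 after 24 h (3.63-fold lower, adjusted p = 1.1e-07). HIST1H2BK, the H2B gene with the most counts in PC-3, was at 88.1 and 114 CPM in DMSO, at 39.0, 37.99 and 37.3 CPM after 12 h and at 43.6, 53.2 and 52.8 CPM after 24 h. The groups did not overlap, and the 24 h libraries lay above the 12 h libraries. It fell by 1.41 ± 0.12 on the log2 scale after 12 h (adjusted p = 1.0e-06) and by 1.02 ± 0.12 after 24 h (adjusted p = 2.5e-05). HIST1H2BD went from 29.9 and 33.1 CPM to between 8.94 and 10.6 CPM and then 10.0 to 12.5 CPM, with log2 fold changes of -1.69 ± 0.13 and -1.498 ± 0.13. HIST1H2BC fell less, from 20.1 and 20.4 CPM to between 10.2 and 11.2 CPM after 12 h and 8.12 to 12.8 CPM after 24 h (log2 fold changes of -0.91 ± 0.16 and -0.89 ± 0.16). The other 8 H2B genes tested did not pass the threshold at either time. HIST1H2BH, an H2B gene tested in PC-3 alone, had log2 fold changes of -0.02 and -0.03.

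Of the 5 H2A genes tested in PC-3, 3 fell at both times. HIST3H2A, an H2A gene of the small cluster on chromosome 1, was at 21.3 and 28.4 CPM in DMSO, at 4.80, 5.94 and 5.57 CPM after 12 h and at 5.99, 5.99 and 7.03 CPM after 24 h. No PDA-66 library came near a control. Its log2 fold change was -2.20 ± 0.16 after 12 h (4.58-fold lower, adjusted p = 1.6e-07) and -1.97 ± 0.16 after 24 h (3.93-fold lower, adjusted p = 8.5e-07). HIST1H2AC, with most H2A counts, was at 49.0 and 47.6 CPM in DMSO, at 15.1, 15.1 and 14.3 CPM after 12 h and at 10.8, 16.0 and 15.2 CPM after 24 h. These groups were also apart, with log2 fold changes of -1.70 ± 0.14 and -1.79 ± 0.14 (adjusted p = 5.0e-07 and 7.9e-07). HIST1H2AI was much lower in level, at 2.09 and 1.95 CPM in DMSO and between 0.34 and 0.67 CPM in the PDA-66 libraries. It fell by 1.95 ± 0.33 and 2.12 ± 0.34 on the log2 scale.

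Of the H1 genes, HIST1H1C was at 44.4 and 50.02 CPM in DMSO, at 27.3, 24.7 and 21.6 CPM after 12 h and at 18.1, 19.2 and 20.3 CPM after 24 h. The 3 groups did not overlap. Its log2 fold change was -0.94 ± 0.12 after 12 h (adjusted p = 2.2e-05) and -1.30 ± 0.12 after 24 h (adjusted p = 3.2e-06). HIST1H1E, the other H1 gene tested, did not pass (0.61 and -0.28). Of the H3 genes, HIST1H3H was at 4.32 and 5.03 CPM in DMSO, at 0.83, 0.85 and 0.95 CPM after 12 h and at 0.59, 1.65 and 2.10 CPM after 24 h. The 24 h libraries spread widely but stayed below the controls, and the log2 fold changes were -2.41 ± 0.35 (adjusted p = 6.5e-05) and -1.71 ± 0.32 (adjusted p = 0.00079). HIST1H3E was at 2.77 and 2.08 CPM in DMSO, at 1.05, 0.85 and 0.77 CPM after 12 h and at 0.59, 0.61 and 1.02 CPM after 24 h. It passed only after 24 h (-1.72 ± 0.31, adjusted p = 0.00055), and the value after 12 h was -1.43 (adjusted p = 0.0011). HIST1H3D had -0.11 after 12 h and -1.10 after 24 h and missed the threshold at both times (adjusted p = 0.0012 after 24 h).

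Of the H4 genes, 1 of 4 passed, and only after 24 h. HIST1H4H, with the most H4 counts, was at 13.2 and 8.78 CPM in DMSO, at 6.90, 5.81 and 5.98 CPM after 12 h and at 4.21, 5.75 and 5.82 CPM after 24 h. Here the controls differed from each other more than the PDA-66 libraries did. The log2 fold change was -0.81 ± 0.19 after 12 h, which did not pass (adjusted p = 0.0029), and -1.06 ± 0.20 after 24 h, which did (adjusted p = 0.00067). HIST1H4C, at 2.84 and 3.76 CPM in DMSO and between 2.43 and 4.09 CPM in the PDA-66 libraries, overlapped between all groups (-0.11 and 0.04).

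Summed over all members of a class, every class of PC-3 was lower with PDA-66. These sums are descriptions without a test. H2A went from a mean of 84.2 CPM (n = 2) to 26.8 ± 0.98 CPM (SD, n = 3) after 12 h and 25.1 ± 4.17 CPM after 24 h, a log2 ratio of -1.65 and -1.74. For H2B, the means were 241, 98.5 ± 4.33 and 103 ± 9.91 CPM (-1.29 and -1.23). H1 went from 49.2 to 26.2 ± 2.86 and 20.4 ± 0.78 CPM (-0.91 and -1.27) and H3 from 13.3 to 6.74 ± 0.10 and 5.18 ± 1.73 CPM (-0.98 and -1.36). For H4 the sums went from 17.6 to 11.7 ± 0.74 and 10.4 ± 0.78 CPM (-0.58 and -0.76). In each class, both controls lay above all 6 PDA-66 libraries. The H1 and H4 sums rested on their highest member. Without it, the log2 ratios after 12 h were -0.29 for H1 and -0.26 for H4, and that of H3 was -1.79.

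**Figure D3:**
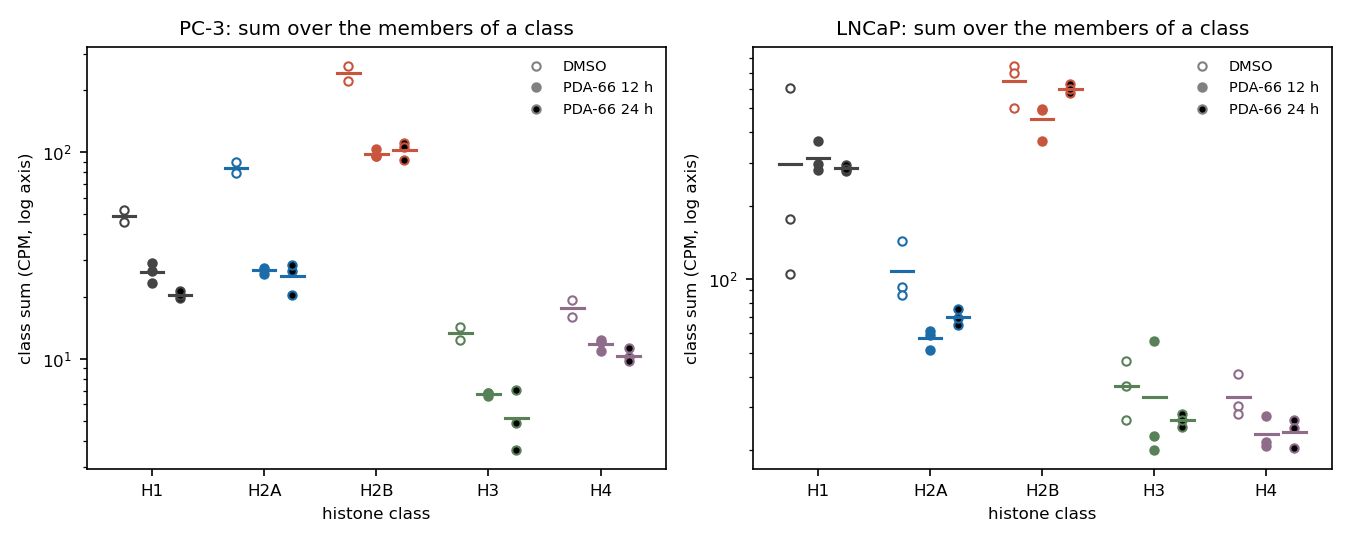
Points give the summed CPM of all members of a histone class per library (log axis) and lines the group mean, in PC-3 (left) and LNCaP (right). In PC-3, both DMSO libraries lie above the PDA-66 libraries in every class, for H2B at a mean of 241 compared with 98.5 and 103 CPM. In LNCaP, control and PDA-66 libraries overlap for H1, H2B and H3, for H2B only after 24 h.

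Between 24 h and 12 h of PDA-66, a contrast in which the controls enter through the shared estimate of the spread, 0 of 26 members differed in PC-3 at an adjusted p under 0.001, compared with 1.41% of all genes. With the edgeR likelihood ratio test it was 1 member, and 10 had an unadjusted p under 0.05. At an adjusted p under 0.05, 3 of 26 differed, compared with 10.1% of all genes. HIST1H2BK was 0.39 ± 0.12 higher on the log2 scale after 24 h (adjusted p = 0.049). HIST1H2BG was lower (-0.69 ± 0.17, adjusted p = 0.020), and so was HIST1H3D (-0.99 ± 0.20, adjusted p = 0.0071). The count at 0.05 was 7 without DMSO replicate 2, 6 without DMSO replicate 3 and 6 in a fit of these 2 groups alone. It was 1 without PDA-66 12 h replicate 3 or without 1 of the 12 h libraries whose replicate number the labels leave unclear.

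The calls in PC-3 rested on single libraries to a different degree. HIST1H1C, HIST1H2AC, HIST1H2BD, HIST1H2BK, HIST2H2BE and HIST3H2A passed at both times whichever of the 8 libraries was left out. HIST1H2AI and HIST1H2BC did not after 12 h, where 7 to 9 members passed. After 24 h, the calls of HIST1H4H (largest adjusted p = 0.0069) and HIST1H3H (largest adjusted p = 0.0048) were each lost in 7 of 8 such fits, that of HIST1H3E in 5 and that of HIST1H2AI in 4. After 24 h, 6 members passed without PDA-66 24 h replicate 1, and 7 without replicate 2 of that group, without PDA-66 12 h replicate 3 or without 1 of the 12 h libraries whose replicate number the labels leave unclear. Among 3 markers of other cells, PECAM1, an endothelial gene, moved with the treatment in PC-3, at 12.8 and 18.5 CPM in DMSO, between 4.09 and 5.16 CPM after 12 h and between 7.71 and 9.78 CPM after 24 h. PTPRC of leukocytes and DCN of fibroblasts were at or below 1.13 and 0.22 CPM in all PC-3 libraries. The part of such cells in the histone values was not tested.

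In LNCaP, no member passed an adjusted p under 0.001, and several were lower after 12 h at the weaker threshold of 0.05. After 12 h, 0 of 37 members passed at 0.001, compared with 0.00760% of all genes, while 23 members and 3950 of all 13156 genes had an unadjusted p under 0.05, and the likelihood ratio test called 3 and DESeq2 4. At 0.05, 10 of 37 fell and 1 rose, compared with 4.62% of all genes that fell and 4.52% that rose. The log2 fold change was below 0 for 27 of 37, with a median of -0.66 compared with 0.03 over all genes. Without PDA-66 12 h replicate 2, 15 of 38 members fell and 1 rose, while 15.0% of all genes fell and 14.1% rose. The count at 0.05 was 1 without DMSO replicate 3, 4 without PDA-66 12 h replicate 3 and 5, 6 and 4 without replicate 1, 2 or 3 of the 24 h group. In a fit of only the 2 groups compared, 0 members passed at 0.05.

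HIST2H2BE, the member with most counts in LNCaP, was at 425, 282 and 419 CPM in DMSO, at 256, 215 and 241 CPM after 12 h and at 358, 328 and 343 CPM after 24 h. The 12 h libraries lay below all controls, while the 24 h libraries lay among them. It fell by 0.66 ± 0.18 on the log2 scale after 12 h (adjusted p = 0.047), and the value after 24 h was -0.13 (adjusted p = 0.75). HIST1H2BF, an H2B gene, was at 4.44, 6.99 and 6.79 CPM in DMSO, at 2.26, 2.14 and 1.36 CPM after 12 h and at 2.51, 3.13 and 3.37 CPM after 24 h. It was the only member that passed after 12 h whichever library was left out (-1.66 ± 0.28, adjusted p = 0.011). HIST1H2BD had 57.2, 42.2 and 63.3 CPM in DMSO and 30.7, 21.2 and 30.6 CPM after 12 h (-0.98 ± 0.21, adjusted p = 0.023). The other H2B genes that fell were HIST1H2BG (-1.22 ± 0.30) and HIST2H2BF (-1.45 ± 0.33). HIST1H2BJ was the member that rose, from 5.997, 6.25 and 6.95 CPM to 9.16, 12.6 and 10.9 CPM (0.76 ± 0.19, adjusted p = 0.037).

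HIST1H2AC was at 35.8, 36.5 and 63.4 CPM in LNCaP DMSO, at 20.9, 17.9 and 23.0 CPM after 12 h and at 29.7, 24.2 and 25.5 CPM after 24 h. All PDA-66 libraries lay below the controls. The log2 fold change of this H2A gene was -1.14 ± 0.24 after 12 h (adjusted p = 0.023) and -0.77 after 24 h (adjusted p = 0.11). HIST3H2A, at 22.5, 23.7 and 39.4 CPM in DMSO and 14.9, 10.7 and 15.9 CPM after 12 h, fell by 1.04 ± 0.25 on the log2 scale (adjusted p = 0.034), and HIST1H2AG fell by 1.13 ± 0.27. Of the H3 and H4 genes, HIST1H3D fell from 8.75, 8.81 and 16.1 CPM to 2.86, 5.19 and 3.80 CPM (-1.51 ± 0.31, adjusted p = 0.019). HIST1H4H fell from 18.4, 17.2 and 28.9 CPM to 11.2, 8.56 and 11.2 CPM (-1.06 ± 0.24, adjusted p = 0.026).

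HIST1H1C and HIST1H3H in LNCaP were each set by 1 library. HIST1H1C was at 599, 99.1 and 164 CPM in DMSO, at 274, 354 and 290 CPM after 12 h and at 280, 264 and 267 CPM after 24 h. DMSO replicate 1 lay above and the other controls below all PDA-66 libraries, and the log2 fold changes were 0.09 ± 0.52 and -0.09 ± 0.52. Without DMSO replicate 1, they were 1.22 and 1.05, and both passed at 0.05. HIST1H3H was at 21.7, 12.3 and 21.4 CPM in DMSO, at 13.9, 46.2 and 15.4 CPM after 12 h and at 17.1, 14.0 and 14.6 CPM after 24 h. The highest of these values was that of the library with many RNAs that lack a poly(A) tail, and the difference did not pass (0.44 ± 0.43), nor did it without that library, where it was -0.34 ± 0.22. HIST1H1E, another H1 gene, had -0.65 with this library, which did not pass, and fell by 1.36 ± 0.33 on the log2 scale without it (adjusted p = 0.012). HIST1H1B, an H1 gene tested in LNCaP alone, also peaked there, at 6.09 CPM compared with 0.74 to 3.98 CPM in the other libraries. Its log2 fold change after 12 h was 1.29 with this library and 0.48 without it, and passed in neither case.

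After 24 h in LNCaP, 0 of 37 members passed at 0.001, as did 0% of all genes, with 9 members and 2599 of 13156 genes at an unadjusted p under 0.05 and 1 member called by the likelihood ratio test and by DESeq2 each. At 0.05, 1 member rose and 0 fell, compared with 1.35% and 1.57% of all genes. This was HIST1H2AL, an H2A gene of low level, at 0.85, 0.91 and 0.70 CPM in DMSO, at 1.86, 1.73 and 0.86 CPM after 12 h and at 3.52, 2.91 and 2.91 CPM after 24 h (1.92 ± 0.32, adjusted p = 0.024). Each 24 h library was above all others, though the call was lost without DMSO replicate 2 or 3 or any of the 24 h libraries, where the log2 fold change stayed between 1.82 and 2.00. The median over the 37 members was -0.35 (-0.01 over all genes). Without PDA-66 12 h replicate 2, which enters here only through the spread, 6 of 38 fell and 2 rose, while 14.5% of all genes fell and 13.5% rose. Between 24 h and 12 h, 0 of 37 members and 0% of all genes differed at 0.05 in LNCaP, with 10 members and 837 of 13156 genes at an unadjusted p under 0.05.

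The class sums of LNCaP spread widely in DMSO. H2A went from 108 ± 31.5 CPM (SD, n = 3) to 57.3 ± 5.10 CPM after 12 h and 69.8 ± 5.27 CPM after 24 h (log2 ratios of -0.91 and -0.63), with no overlap between controls and PDA-66 libraries. H2B had 647 ± 128, 451 ± 72.8 and 602 ± 23.0 CPM (-0.52 and -0.10). H1 had 296 ± 272, 314 ± 47.2 and 284 ± 8.09 CPM, which is within the spread of the controls. H3 (36.5 ± 9.83, 33.0 ± 19.9 and 26.5 ± 1.65 CPM) and H4 (33.1 ± 6.81, 23.4 ± 3.67 and 23.8 ± 3.16 CPM) had log2 ratios of -0.14 and -0.50 after 12 h. Without PDA-66 12 h replicate 2, that of H3 was -0.76.

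**Figure D4:**
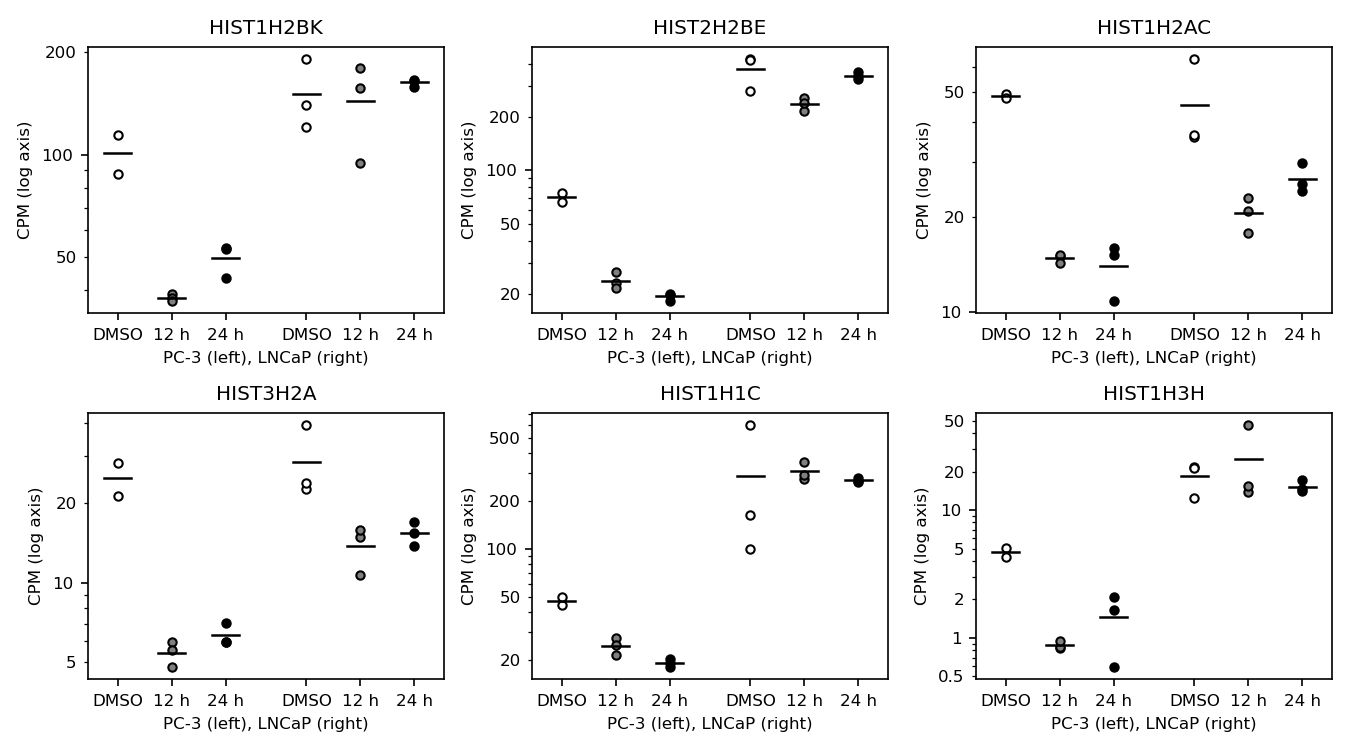
CPM per library (log axis) of 6 members in PC-3 and LNCaP, with lines at the group means. HIST2H2BE lay at 66.2 and 74.5 CPM in PC-3 DMSO and at 18.3 to 26.6 CPM with PDA-66, while LNCaP had 282 to 425 CPM in DMSO and 215 to 358 CPM with PDA-66.

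The cell lines were then set against each other, in 1 fit of all 17 libraries with 41 members tested. According to the methods, the 2 lines were grown in different media. Cell line, culture medium and library preparation cannot be told apart here or in the interactions below. In the DMSO libraries, PC-3 had less of most members. At an adjusted p under 0.001, 13 of 41 were lower and 1 was higher in PC-3 than in LNCaP, compared with 19.1% of all 15018 genes that were lower and 21.7% that were higher. The median log2 difference was -1.39, and 37 of 41 were below 0. The filter also kept members with enough counts in only 1 line. In the fits per line, 12 members were tested in LNCaP only and 1 in PC-3 only. These counts and the median therefore partly follow from the filter. HIST2H2BE averaged 71.6 CPM in PC-3 and 375 ± 81.7 CPM in LNCaP in this fit (-2.39 ± 0.19), and HIST1H1C 48.0 and 287 ± 271 CPM (-2.58 ± 0.51). Without LNCaP DMSO replicate 1, the difference of HIST1H1C was -1.45. The gene higher in PC-3 was HIST1H2BH, at 1.10 and 1.36 CPM there and with a single read in 1 of the 3 LNCaP DMSO libraries. HIST1H2BH was kept by the filter only through PC-3, where it is high, so its call and direction partly follow from the filter. The same holds for called members tested in LNCaP only. Of the 10 called members with the largest differences, HIST1H2BH, HIST2H2BE and HIST2H2BF passed whichever library was left out, which was not computed for the other 4. Without PC-3 DMSO replicate 2 or 3, 9 or 6 members passed, and without LNCaP PDA-66 12 h replicate 2 there were 22.

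The response to PDA-66 differed between the lines for 7 members after 12 h, a share near that of all genes, and for 4 after 24 h. This was tested as an interaction, the log2 fold change of PC-3 minus that of LNCaP, at an adjusted p under 0.05. After 12 h, 4 of 41 members were more negative and 3 more positive in PC-3, compared with 6.80% and 6.92% of all genes. After 24 h, 4 of 41 were more negative and 0 more positive, compared with 2.51% and 3.48% of all genes. The interaction was below 0 for 27 of 41 members after 12 h (median -0.51) and for 35 of 41 after 24 h (median -0.71). The 41 include members with few counts in 1 line, such as HIST1H2AL with 8 reads over all PC-3 libraries.

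HIST2H2BE had the smallest adjusted p of the members after 24 h, with an interaction of -0.85 ± 0.23 after 12 h (adjusted p = 0.021) and -1.69 ± 0.23 after 24 h (adjusted p = 0.00067). After 24 h it was the only member whose call held with each library left out, the largest adjusted p being 0.0050. HIST1H2BK had -1.29 ± 0.31 and -1.10 ± 0.31 (adjusted p = 0.012 and 0.047). HIST1H3H (-2.78 ± 0.66) and HIST3H2A (-1.10 ± 0.33) were more negative in PC-3 after 12 h, and HIST1H2BD (-1.06 ± 0.27) and HIST1H3E (-1.65 ± 0.43) after 24 h. After 12 h, 3 members had a smaller adjusted p than HIST2H2BE, namely HIST2H2BF (0.0087), HIST1H3H (0.011) and HIST1H2BK, and the call of HIST2H2BF held with each library left out (largest adjusted p = 0.0499). HIST2H2BF (2.54 ± 0.58), HIST1H3D (1.46 ± 0.40) and HIST1H2BF (1.45 ± 0.44) were more negative in LNCaP after 12 h. Without LNCaP PDA-66 12 h replicate 2, 5 of 41 members were more negative and 5 more positive after 12 h, and 8 and 0 after 24 h, where 11.4% and 12.9%, and 9.59% and 11.3%, of all genes were. In either direction, these were 24.4% of members and 24.3% of all genes after 12 h, and 19.5% and 20.9% after 24 h.

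**Figure D5:**
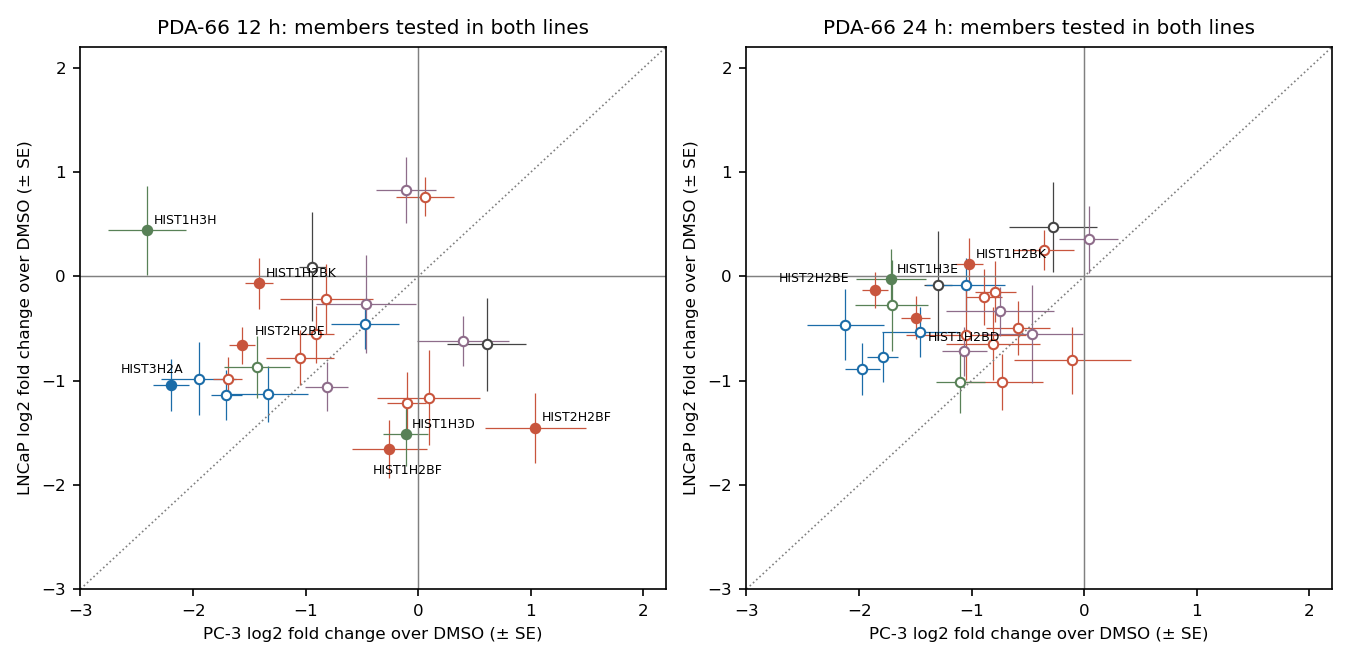
Each point is a member tested in both lines, with its log2 fold change over DMSO in PC-3 (horizontal) and LNCaP (vertical), bars of 1 SE, colours of the classes as in the plot of PC-3 fold changes and filled, named points for an interaction with an adjusted p under 0.05. After 24 h, all 4 filled points lie above the dotted line of equal response, with HIST2H2BE at -1.86 in PC-3 and -0.13 in LNCaP.

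The members were also compared by features of their genes, as counts without a test. An annotated transcript reached 285 to 29195 bases past the stem-loop for 16 members, and all transcripts ended 1 to 11 bases behind it for 46. Of these, 12 of 16 and 10 of 46 had enough counts in PC-3, and 12 of 16 and 18 of 46 in LNCaP. Among the longer ones, 5 of 12 fell in PC-3 after 12 h (median -1.24) and 7 of 12 after 24 h (median -1.28), among the others 3 of 10 at each time (medians -0.47 and -0.92). In LNCaP at 0.05, 6 of 12 of the longer ones fell and 1 rose after 12 h (median -0.93), and 1 of 18 of the others fell (median -0.14). A further 11 members, for which no stem-loop was found or none could be searched for, belong to neither set. Of these, 1 of 4 tested fell in PC-3 at each time (medians -0.58 and -0.84). In LNCaP, 3 of 7 fell after 12 h, with a median of -1.13. Of all genes, 14.6% and 10.5% fell in PC-3 after 12 h and 24 h, and 4.62% in LNCaP after 12 h. HIST2H2BE, HIST1H2AC, HIST1H2BD and HIST3H2A belong to the longer ones, while HIST1H2BK and HIST1H1C have no annotated transcript that reads on. Members with the octamer fell in 3 of 10 cases in PC-3 after 12 h and those without it in 5 of 12, as did 1 of 4 without a promoter at hand.

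On GRCh37, HIST2H2BE spans chr1:149856009-149858232, HIST3H2A chr1:228622478-228645574, HIST1H1C chr6:26055968-26056698, HIST1H2AC chr6:26124373-26139344 and HIST1H2BK chr6:27114140-27114634, all annotated as protein-coding. By position, 7 of 21 members tested in the HIST1 cluster on chromosome 6 fell in PC-3 after 12 h and 9 of 21 after 24 h. Of all genes, 14.6% and 10.5% did. HIST2H2BE and HIST3H2A were the ones that fell in the HIST2 and HIST3 clusters, with 2 members tested in each, and HIST4H4 on chromosome 12 did not pass. In 11 pairs of neighbours, 10 of them H2A with H2B, the 5′ ends lay 170 to 319 bases apart on opposite strands. Such neighbours did not have like values in each case. HIST3H2A and HIST3H2BB, 230 bases apart, had log2 fold changes of -2.20 and 0.09 in PC-3 after 12 h and -1.97 and -1.05 after 24 h. HIST1H2BJ and HIST1H2AG, 248 bases apart, had 0.76 and -1.13 in LNCaP after 12 h. The differences within pairs were not tested.

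Other genes of histone supply and DNA synthesis were read from lists, beside which 13.0% and 8.88% of all genes rose in PC-3 after 12 h and 24 h at 0.001, and 4.52% and 1.35% in LNCaP at 0.05. All 20 genes of S phase DNA synthesis had log2 fold changes above 0 in both lines and at both times. In PC-3, 16 of 20 rose after 12 h and 15 after 24 h at 0.001 (medians of 0.94 and 0.88), among them RRM2, a subunit of ribonucleotide reductase (1.58 ± 0.14 and 1.56 ± 0.14). In LNCaP, 17 and 12 of 20 rose at 0.05 (medians of 1.28 and 1.16), with 2.10 ± 0.32 and 1.74 ± 0.31 for RRM2. Of 28 genes of histone message processing and transcription, 7 rose and 0 fell in PC-3 after 12 h, and 6 rose and 0 fell after 24 h, while 14.6% and 10.5% of all genes fell. They included NCBP1 of the cap-binding complex (0.99 ± 0.10 and 1.17 ± 0.10) and ERI1, an exonuclease of the histone message end (0.94 ± 0.13 and 0.95 ± 0.13). SLBP rose after 12 h (0.56 ± 0.09) and had 0.44 ± 0.09 after 24 h, which did not pass (adjusted p = 0.0015). In LNCaP, E2F1, a transcription factor of S phase genes, was the 1 of 28 genes of this list that rose at each time (1.89 ± 0.28 and 1.40 ± 0.27), which is a share near that of all genes.

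Histone genes outside the clusters moved in both directions in PC-3. Of 10 tested after 12 h, H1F0 (-1.52 ± 0.09), H1FX (-1.27 ± 0.12) and H2AFJ (-0.72) fell, and H2AFX (0.61 ± 0.09) and H2AFY (0.48 ± 0.09) rose. After 24 h, 2 fell and 2 rose, the linker histone genes H1F0 (-1.08 ± 0.09) and H1FX (-1.34 ± 0.12) again being those that fell. Of 11 tested in LNCaP, 4 rose and 1 fell at 0.05 after 12 h, with H2AFX (1.89 ± 0.33) and H2AFZ (1.502 ± 0.23) leading and H1F0 lower (-0.63 ± 0.17), and 2 rose after 24 h. Of 20 histone chaperones, which carry histones to DNA, 10 rose and 1 fell in PC-3 after 12 h and 10 rose and 2 fell after 24 h, among them CHAF1B (1.31 ± 0.11 and 1.30 ± 0.11) and ASF1B (1.08 ± 0.09 and 0.85 ± 0.09). In LNCaP, 8 and 2 rose and 0 fell at 0.05, with ASF1B at 2.05 ± 0.24 and 1.58 ± 0.23. Of 42 RNAs without a poly(A) tail, 9 were tested in PC-3 and 0 passed at 0.001 at either time, with 3 and 4 at an unadjusted p under 0.05. In LNCaP, 6 were tested and 0 passed at 0.05, with 1 and 0 at an unadjusted p under 0.05.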

How the data were processed

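The members, gene lists and tests were chosen with earlier results of these data known. According to the methods, 3 independent biological replicates per group were sequenced as 75-base single reads of poly(A)-enriched RNA, and the authors excluded 1 PC-3 control, which was not used here. The authors mapped the reads to hg19 with STAR 2.3.1s and deposited raw read counts per RefSeq gene, without normalization. Nothing states how the counting treated strand or reads that match several genes. Empty separators that trailed 1 column were dropped, and 2 PC-3 PDA-66 12 h libraries carry no clear replicate number.

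After filterByExpr and TMM normalization, the quasi-likelihood F test of edgeR 4.0.16 was run in R 4.3.3, per line over its 3 groups, or over all 17 libraries for the interaction and DMSO levels. P-values were adjusted over all genes tested by the Benjamini-Hochberg method. The threshold was 0.001, as in the study, and 0.05 in LNCaP and for interactions. On simulated data with log2 changes of 2, 188 of 200 changed genes were found for PC-3 12 h (13777 genes) and 128 of 200 for LNCaP 12 h (13156 genes), with 0 false calls. The threshold there was 0.001 in both lines. The simulated counts held no library that stood apart and had the same spread per gene in all groups of a line. They cannot show how reliable the PC-3 calls are, where the groups differed in spread. Nor can they show this for the LNCaP calls at 0.05. CPM are TMM-scaled. Depth limits only the precision by counting error.

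Members named were the 2 highest per class and line, up to 10 with the largest called log2 fold changes per comparison, and near-identical copies, and list genes named were called ones, at most 6 per list and comparison. The values of SLBP after 24 h, HIST1H1B, HIST4H4, PECAM1, PTPRC, DCN and neighbours of named members were added after their values were seen. The check with the LNCaP markers is not reported here. In the annotation (GENCODE on GRCh37), 67 of 73 members were matched by symbol. The alternatives were DESeq2 1.42.0, the likelihood ratio test, DESeq2 size factors, total counts, no filter, a filter on CPM, a replicate block, a fit without the third group, a threshold of 0.05, a minimum log2 fold change of 1 in size and leaving out each library in turn. Figures and tables were made with Python 3.11.15.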

Additional observations from a re-analysis of the deposited data

Results flagged for a closer look

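The following members responded differently in PC-3 and LNCaP by a test of the difference itself, the interaction in the quasi-likelihood test of edgeR, with Benjamini-Hochberg adjusted p-values over 15018 genes. After 12 h, the share of members that did so was near that of all genes. After 24 h, it was 9.76% of members, while 2.51% of all genes were more negative and 3.48% more positive in PC-3. Without LNCaP PDA-66 12 h replicate 2, it was 19.5% of members and 20.9% of all genes after 24 h. Values are the log2 fold change of PC-3 minus that of LNCaP. After 12 h, they were 2.54 for HIST2H2BF, 1.46 for HIST1H3D, 1.45 for HIST1H2BF, -0.85 for HIST2H2BE, -1.10 for HIST3H2A, -1.29 for HIST1H2BK and -2.78 for HIST1H3H. HIST2H2BF was the 1 of these 7 that passed with each library left out. After 24 h, they were -1.06 for HIST1H2BD, -1.10 for HIST1H2BK, -1.65 for HIST1H3E and -1.69 for HIST2H2BE, and HIST2H2BE was the 1 of these 4 that passed with each library left out. HIST1H3H was at 46.2 CPM in LNCaP PDA-66 12 h replicate 2 and at 13.9 and 15.4 CPM in its replicates.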

How the results depend on the processing

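Of 1663 values of named members under the alternatives, 1462 kept their side of the threshold, 176 lost it, 24 gained it and 1 passed it with the opposite sign, HIST1H1C in LNCaP after 24 h, at 1.05 without DMSO replicate 1 and at -0.49 at the other end of the values with 1 library left out. Values that did not pass could also change sign, such as HIST1H3H in LNCaP after 12 h, at 0.44 and at -0.34 without PDA-66 12 h replicate 2. The cause was not tested for any of these. In a fit of only the groups compared, 7 members were called in PC-3 after 24 h, 6 between 24 h and 12 h at 0.05, and 0 and 8 in LNCaP at 0.05 after 12 h and 24 h. With an adjusted p under 0.05, the counts were 3 between 24 h and 12 h in PC-3, 11 and 1 in LNCaP, 7 and 4 for the interaction and 28 for the DMSO levels. The likelihood ratio test gave 1 and 7 (at 0.05) between 24 h and 12 h in PC-3, 3 and 1 in LNCaP after 12 h and 24 h, 5 at 0.05 after 24 h, and 1 for the interaction after 12 h and 7 at 0.05 after 24 h. DESeq2 gave 4 and 1 in LNCaP, 5 at 0.05 after 24 h and 1 for the interaction after 12 h. With total counts in place of TMM, the interaction after 24 h gave 0 and, at 0.05, 2.

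Samples of the same replicate number had correlations of -0.42 to 0.19 in LNCaP (9 pairs) and -0.11 to 0.08 in PC-3 (4 pairs). These are correlations of deviations from the group mean, so LNCaP PDA-66 12 h replicate 2 weighs on each LNCaP pair that holds a 12 h library. Between LNCaP DMSO and 24 h libraries, they were -0.01, 0.19 and 0.04. With so few libraries per group, this cannot decide whether the numbers pair the samples. A replicate block gave 6 calls in PC-3 after 24 h and, at 0.05, 6 and 0 in LNCaP after 12 h and 24 h.

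With 1 library left out at a time, 7 to 9 members passed in PC-3 after 12 h, 6 to 10 after 24 h and 0, or 1 to 7 at 0.05, between them. In LNCaP, 0 passed at 0.001 and 1 to 16 and 0 to 8 at 0.05. The interaction gave 0 to 1 and 0 to 2 (2 to 10 and 1 to 8 at 0.05), and the DMSO levels 6 to 22. Log2 ratios of class sums ranged from -1.40 to -1.16 for H2B and -0.70 to -0.44 for H4 in PC-3 after 12 h, from -1.33 to -1.09 and -0.87 to -0.62 after 24 h, and in LNCaP from -0.32 to 1.17 for H1, -1.05 to -0.65 for H2A and -0.76 to 0.11 for H3 after 12 h and from -0.46 to 1.02 for H1 and -0.76 to -0.36 for H2A after 24 h. Without the highest member of each class, they were -0.29 (H1), -1.79 (H3) and -0.26 (H4) in PC-3 after 12 h, -0.73 (H1), -1.40 (H2B) and -0.37 (H4) after 24 h, and -1.20 (H3) and 0.17 (H4) after 12 h and -0.11 (H4) after 24 h in LNCaP.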
